A study of Mus musculus with 24 samples.

Results

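Mouse embryonic fibroblasts (MEFs) that lack the ubiquitin ligases Siah1a and Siah2 carry 10 transcripts at very low levels, and these were followed here through 5 kinds of stress. The genes, 10 of the 13305 with a measured probe, are Gpr149, Fah, Slc35g2, Foxs1, Cldn1, Thbd, Gap43, Sema7a, Cyp7b1 and Aqp1. They were chosen by their array signal, as genes strongly lower in knockout (KO) than in wild-type (WT) samples, so the KO minus WT gap is given below as a description with no test. The choice names no threshold. In untreated cells they held ranks 1 to 29 of all genes when ordered from the lowest KO minus WT difference, and 19 genes outside the group had a difference as low as that of Gap43, the smallest of the 10. The array carries 15 probes for them, and all 15 gave a signal above background on at least 1 array.

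KO MEFs came from Siah1a-/-::Siah2-/- mice and WT MEFs from wild-type mice. Cells of both genotypes spent 12 h at low oxygen (OD, at 1%), in medium without glucose (GD) or under both deprivations at once (OGD), or were given thapsigargin (TG, 1 µM in the culture methods) or tunicamycin (TM, with no dose named for the arrays) for 6 h, or were left untreated. Each of the 12 groups (6 conditions in 2 genotypes) held 2 of the 24 Illumina Mouse-6 arrays. Nothing in the labels says that duplicates came from separate embryos, lines or cultures, so p-values measure only the spread between these arrays. The culture methods name DMSO as the vehicle of both drugs, while the labels of the untreated arrays give no treatment.

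Siah ligases tag partner proteins for destruction by the proteasome. Among their known partners are the prolyl hydroxylases that mark the hypoxia factor HIF1α for degradation, which ties these ligases to oxygen sensing. TG blocks the pump that fills the endoplasmic reticulum (ER) with calcium and TM blocks the addition of N-linked sugars there, so that misfolded proteins accumulate and the unfolded protein response starts. That response slows protein synthesis, raises chaperones and degrades many messages of secreted and membrane proteins at the ER surface. The genes followed here belong to no single pathway. Gpr149 is an orphan G-protein-coupled receptor, Sema7a a lipid-anchored semaphorin that signals through integrins and plexin C1, Thbd (thrombomodulin) the surface cofactor that turns thrombin towards protein C, Cldn1 a tight-junction claudin and Gap43 a growth-cone protein. Aqp1 is a water channel, Slc35g2 belongs to the solute carrier family SLC35, Fah performs the last step of tyrosine breakdown, Cyp7b1 hydroxylates oxysterols on the way to bile acids, and Foxs1 is a forkhead transcription factor.

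These transcripts took separate courses under stress. Under TG, 4 of the 10 fell in WT cells (Aqp1, Cyp7b1, Gpr149 and Sema7a) and under TM 3 fell (Aqp1, Gpr149 and Cyp7b1), by 4.14-fold to 8.77-fold. Of all genes 1.73% were called lower in WT cells under TG and 1.01% under TM. Thbd was the one gene of the 10 called higher in WT cells, 4.63-fold under OGD, where 2.18% of all genes were. Fah and Slc35g2 stayed within 1.22-fold of untreated WT cells under each stress. In KO cells 0 of the 10 was called under any stress, where 0.00752% (GD) to 5.37% (TG) of all genes were. KO Slc35g2 lay at background, as did Cldn1 on most KO arrays, and Fah and Thbd lay near it, so a large fall could not show there. The gap had its smallest values under TG and TM for Aqp1, Gpr149 and Cyp7b1. KO signal was near background for Gpr149 and at background for Cyp7b1. The gap of Gap43 had its largest values under these drugs.

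Both deleted genes had lower median signals on KO arrays, to different degrees. The Siah1a probe read 178 to 303 on KO arrays (above the background level of 233 on 8 of 12) and 1155 to 1839 on WT arrays, and the 2 genotypes did not overlap. The Siah2 probe read 239 to 718 (median 478) on KO arrays, above background on all 12, and 505 to 2014 (median 914) on WT arrays, so the genotypes overlapped and this probe does not separate them. Whether it lies in the deleted part of the gene was not tested. The 2 genotypes also differed in sex-linked RNA. The Y-linked Eif2s3y read 2339 to 4539 on KO arrays and 159 to 204 on WT arrays, and Xist, the RNA of the inactive X chromosome, 165 to 326 on KO arrays and 1512 to 3493 on WT arrays, so that Siah genotype and sex of the cells cannot be told apart. Of 16 fibroblast markers 15 were measured, with a summed intensity of 110790 to 228065 on KO arrays and 70775 to 122780 on WT arrays. Of markers of other cells, 8 of 13 endothelial, 7 of 13 epithelial, 9 of 12 mural (pericyte and smooth muscle), 6 of 14 neural and glial and 5 of 12 blood genes had a probe above background on some array. The sums were 2574 to 4763 on KO and 2203 to 5219 on WT arrays for endothelial genes, 1418 to 2027 on KO and 1497 to 8303 on WT arrays for epithelial genes, and 64587 to 75253 on KO and 41160 to 73552 on WT arrays for mural genes. They were 3046 to 5795 on KO and 2702 to 19005 on WT arrays for neural and glial genes, and 1225 to 1836 on KO and 1335 to 2170 on WT arrays for blood genes. The defining endothelial genes Pecam1 (161 to 244 on KO, 164 to 241 on WT arrays) and Cdh5 (173 to 228 on KO, 187 to 238 on WT arrays) stayed near background, as did the epithelial Cdh1 (204 to 256 on KO, 181 to 278 on WT arrays). Other markers had clear signal. The endothelial genes Egfl7 (970 to 2151 on KO, 381 to 1289 on WT arrays) and Flt1 (301 to 1560 on KO, 409 to 2375 on WT arrays), the neural Map2 (1727 to 3669 on KO, 1606 to 2690 on WT arrays) and the blood marker Cd14 (387 to 972 on KO, 517 to 1100 on WT arrays) were above background on all arrays. Above it on some arrays were the keratin Krt19, at 156 to 520 on KO and 208 to 7081 on WT arrays, the neuronal Stmn2, at 199 to 534 on KO and 308 to 16057 on WT arrays, and the neural crest factor Sox10, at 172 to 1415 on KO and 155 to 222 on WT arrays. The part of other cells in the results below was not tested.

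Promoter sequence was available for 5 of the 10 genes in the RefSeq table (build GRCm38.p6), as the 250 bases before and the 50 after the annotated start, and 4 are printed because they contrast 2 genes that fell under TG in WT cells (Aqp1 and Sema7a) with 2 that were not called there (Fah and Slc35g2). The promoters lie at chr6:55336049-55336348 (Aqp1, plus strand), chr9:57939862-57940161 (Sema7a, plus strand), chr7:84605893-84606192 (Fah, minus strand) and chr9:100571036-100571335 (Slc35g2, minus strand). Each reads 5′ to 3′ along the gene, and capitals mark every match on either strand to the motifs searched.
Aqp1: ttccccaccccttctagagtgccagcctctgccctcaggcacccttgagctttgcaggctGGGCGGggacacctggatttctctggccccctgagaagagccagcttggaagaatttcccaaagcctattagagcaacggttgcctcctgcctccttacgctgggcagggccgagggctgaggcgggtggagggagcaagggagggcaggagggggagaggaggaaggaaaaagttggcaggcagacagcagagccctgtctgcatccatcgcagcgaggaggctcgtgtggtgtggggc
Sema7a: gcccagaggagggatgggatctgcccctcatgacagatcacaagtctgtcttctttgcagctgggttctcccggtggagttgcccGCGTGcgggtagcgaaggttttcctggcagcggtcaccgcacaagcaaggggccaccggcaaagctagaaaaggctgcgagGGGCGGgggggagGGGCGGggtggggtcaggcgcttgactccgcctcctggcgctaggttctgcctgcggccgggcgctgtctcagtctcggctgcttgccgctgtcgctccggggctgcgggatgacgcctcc
Fah: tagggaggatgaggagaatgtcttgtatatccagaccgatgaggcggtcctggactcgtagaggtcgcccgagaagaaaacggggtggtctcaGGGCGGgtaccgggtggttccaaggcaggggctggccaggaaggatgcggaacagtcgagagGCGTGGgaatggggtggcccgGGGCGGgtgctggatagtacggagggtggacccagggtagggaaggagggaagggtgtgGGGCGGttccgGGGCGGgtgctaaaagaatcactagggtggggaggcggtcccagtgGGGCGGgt
Slc35g2: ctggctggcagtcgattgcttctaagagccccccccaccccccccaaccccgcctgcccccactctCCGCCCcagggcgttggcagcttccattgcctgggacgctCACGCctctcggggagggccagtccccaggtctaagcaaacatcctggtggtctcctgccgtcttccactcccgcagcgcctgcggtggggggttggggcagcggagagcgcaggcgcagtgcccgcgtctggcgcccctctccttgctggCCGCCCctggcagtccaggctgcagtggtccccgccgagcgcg
Searched for were the core of the hypoxia element in its forms ACGTG and, as the other common spelling, GCGTG. A match to the palindromic E-box was CACGTG, one to the binding letters of nuclear factor Y was CCAAT, one to the core promoter box was TATAAA, one to the Sp family was GGGCGG and one to the cyclic AMP element was TGACGTCA. Motifs bound by factors of the unfolded protein response were TGATGNAA for Atf4, TGACGTGG for Atf6 and Xbp1, and the element end CCACG. The first core, ACGTG, lies inside the E-box letters and inside TGACGTGG, and GCGTG can overlap the reverse complement of CCACG, as it does once in Fah. GGGCGG occurred in all 5 promoters of the group and in 35.7% of 32851 promoters of that length. GCGTG was in 3 of the 5 (Fah, Sema7a and Slc35g2) and in 32.4% of all, and CCACG in 2 of the 5 (Cldn1 and Fah) and in 32.8% of all. The remaining 7 motifs (ACGTG, found in 19.6% of all promoters, CACGTG in 7.2%, CCAAT in 37.4%, TATAAA in 13.6%, TGACGTCA in 1.8%, TGATGNAA in 4% and TGACGTGG in 0.7%) were in 0 of the 5. With so few promoters, the letters are a description only. Gpr149, Foxs1, Thbd, Gap43 and Cyp7b1 are named without sequence.

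Levels separated the genotypes on every array for each of the 10 genes, which the choice itself used. On a linear intensity scale Gpr149, the receptor, read 210 to 355 (median 254) on 12 KO arrays and 3128 to 28709 (median 12419) on 12 WT arrays. Aqp1 kept a signal well above background in KO cells, with 670 to 1716 (median 1308) on KO arrays and 2843 to 43042 (median 16642) on WT arrays. In both genes the WT TG and TM arrays lay below all other WT arrays. Cyp7b1 read 167 to 249 on KO arrays, above background on 1 of 12, and 353 to 5116 (median 1484) on WT arrays. Slc35g2 read 132 to 211 on KO arrays, above background on 0 of 12, and 1517 to 3280 (median 2450) on WT arrays. Cldn1 read 167 to 271 on KO arrays, above background on 3 of 12, and 579 to 6683 (median 1719) on WT arrays. For these 3 genes KO cells gave little or no measurable signal, so their KO minus WT folds are lower bounds wherever both KO arrays lay at background. Fah held 236 to 343 (median 279) on KO arrays and 2885 to 5715 (median 4126) on WT arrays, the narrowest WT range in proportion among the 10. Foxs1 held 242 to 608 (median 356) on KO arrays and 1863 to 10171 (median 3160) on WT arrays. Thbd held 207 to 473 (median 263) on KO arrays and 1141 to 11467 (median 3526) on WT arrays. The growth-cone and guidance genes kept some signal in KO cells. Gap43 held 367 to 1141 (median 582) on KO arrays and 3783 to 8438 (median 5516) on WT arrays. Sema7a held 191 to 674 (median 452) on KO arrays, above background on 9 of 12, and 1168 to 7043 (median 3844) on WT arrays.

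**Figure D1:**
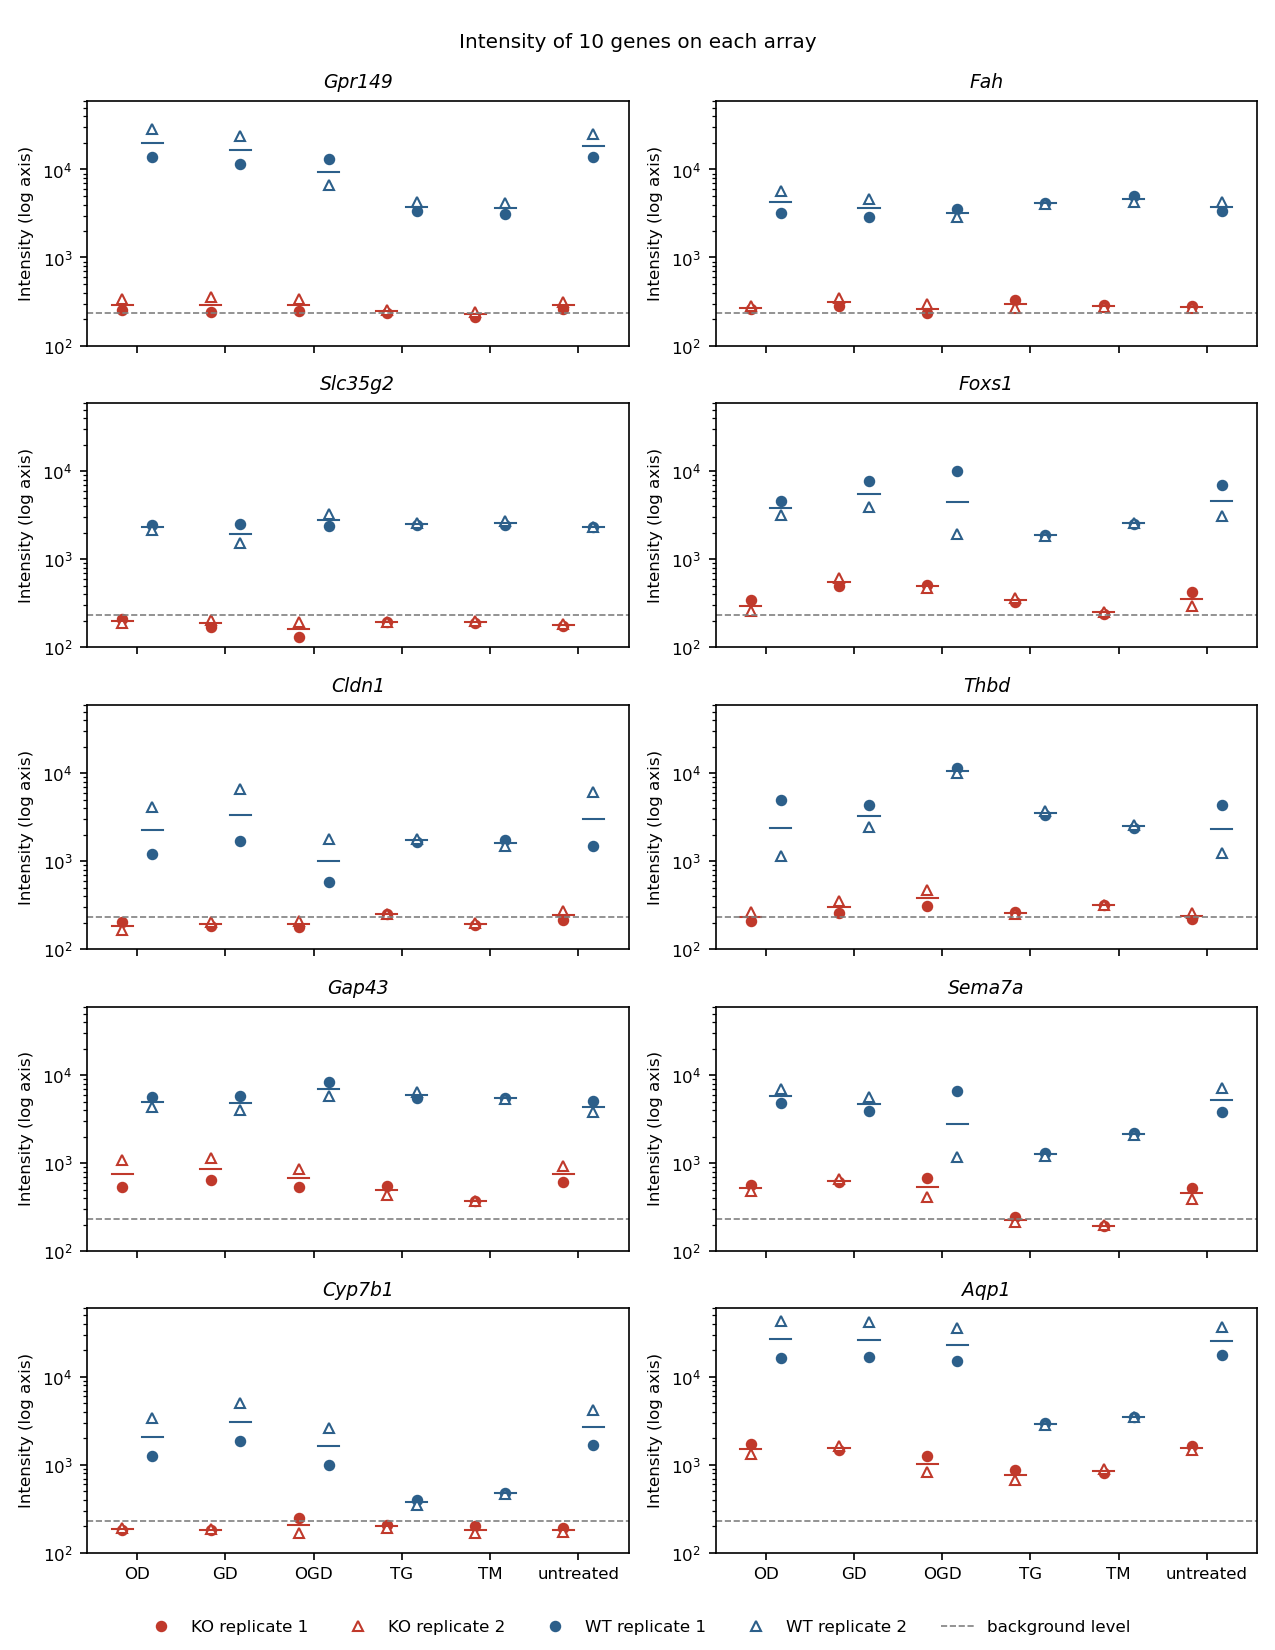
Intensity (log axis) of each gene on every array, by condition, with KO arrays in red to the left of WT arrays in blue. Circles are replicate 1, triangles replicate 2, short bars their geometric mean, and the dashed line is the background level of 233. WT Aqp1, Cyp7b1, Gpr149 and Sema7a are low under TG, and WT Thbd is high under OGD.

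The gap in untreated cells, as a log2 difference of KO minus WT means, was -6.03 for Gpr149, -4.03 for Aqp1, -3.87 for Cyp7b1, -3.78 for Fah, -3.72 for Slc35g2, -3.71 for Foxs1, -3.64 for Cldn1, -3.52 for Sema7a, -3.27 for Thbd and -2.54 for Gap43. Gpr149 stood far apart from the other 9, whose values lay close together. In folds, Gpr149 was 65.2-fold (with KO signal near background), Aqp1 16.3-fold and Gap43 5.81-fold lower in KO cells. Cyp7b1 was at least 11.5-fold and Slc35g2 at least 10-fold lower, these bounds being computed against the background level. In all other comparisons a gene was called where the limma adjusted p (Benjamini-Hochberg, over all kept probes) was under 0.05 and the change at least 2-fold. For the gap itself the same cut-offs restate the choice and are no test of it. They took in all 10 genes in untreated cells (1.47% of 13305 genes were lower in KO cells by them) and under OD (1.68%), GD (1.51%) and OGD (1.99%), and 9 under TG (1.83%) and TM (2.07%), where Cyp7b1 lay outside.

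The duplicates of untreated WT cells differed from each other in most of the genes. Untreated WT replicate 2 read above replicate 1 for Cldn1 (6146 and 1487), Cyp7b1 (4223 and 1702), Aqp1 (36749 and 17649), Gpr149 (25299 and 13688) and Sema7a (7043 and 3813). It read below replicate 1 for Thbd (1235 and 4313), Foxs1 (3092 and 6949) and Gap43 (3783 and 5041). The same order of replicates appeared under OD and GD for all 8 of these genes. WT OD, GD and untreated arrays with the same replicate number thus deviated in the same direction for these genes. Over the 10 genes the median fold between duplicates was 1.92 in WT OD, 1.87 in WT GD, 2.18 in WT OGD and 1.96 in untreated WT arrays, but 1.07 in both WT TG and WT TM arrays. In KO groups the median lay between 1.06 and 1.48. By the array names that the study's heat map prints, the TG and TM arrays of WT cells were on a different pair of chips from their untreated arrays. A chip effect and a TG or TM effect therefore cannot be told apart in WT cells by design. KO OD and OGD arrays were on that second pair too and untreated KO arrays on the first. A chip effect and an OD or OGD effect thus cannot be told apart in KO cells either. KO TG and TM samples directly follow WT TG and TM samples in the deposited order, so the same may hold for KO responses to both drugs. Aqp1 read 1716 and 1347 in KO OD cells, 1268 and 830 in KO OGD cells and 1652 and 1468 in untreated KO cells. The part of the chip in these values was not tested.

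**Figure D2:**
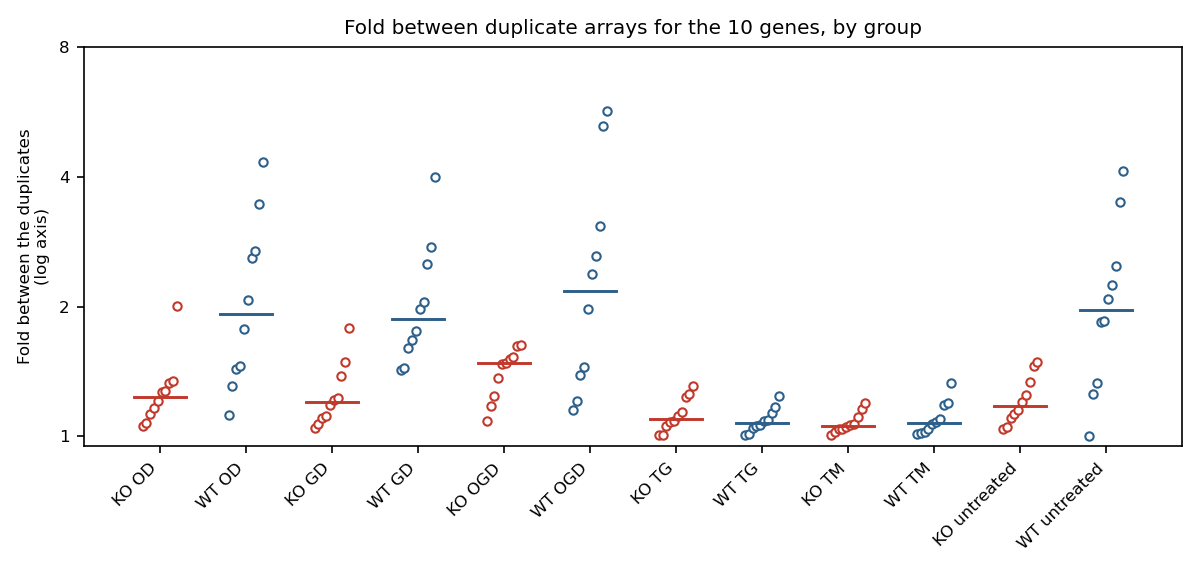
Fold between the 2 arrays of a group (log axis) for each of the 10 genes as a circle, with the median as a bar, KO groups in red to the left of WT groups in blue. WT OD, GD, OGD and untreated groups have medians of 1.87 to 2.18, and TG and TM groups medians of 1.06 to 1.1.

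Single deprivations left the 10 transcripts of WT cells near their untreated levels. Under OD 0 of 10 was called (0.241% of all genes in either direction), with log2 changes of -0.44 to 0.19. Under GD 0 of 10 was called (0.00752%), with changes of -0.26 to 0.50. At an unadjusted p of at most 0.05 with the same fold, both counts were again 0. Aqp1 illustrates the flatness. It read 16574 and 43042 under OD, 16710 and 42040 under GD, and 17649 and 36749 in untreated WT cells. The 95% interval of its OD response ran from -0.97 to 1.10 on the log2 scale, so a smaller change was not detectable with 2 arrays a group.

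Under OGD the thrombin cofactor Thbd rose in WT cells. It read 11467 and 9978 under OGD, against 4313 and 1235 in untreated WT cells, and both OGD arrays exceeded all other WT arrays. The log2 change was 2.21 ± 0.55 (SE, n = 2 each, limma adjusted p = 0.0219), or 4.63-fold, and Thbd was the single gene of the 10 among the 2.18% of genes called higher. It was also higher than under OD, at 4935 and 1141. The increase was 1.41 in replicate 1 and 3.01 in replicate 2. The call was lost without WT OGD replicate 1 (2.11, adjusted p = 0.0598), WT OGD replicate 2 (2.31, adjusted p = 0.0805) or untreated WT replicate 2 (1.31, adjusted p = 0.258), and without untreated WT replicate 1 the value was 3.11. It was lost too when only the OGD and untreated WT arrays were fitted (adjusted p = 0.355) and with array weights (adjusted p = 0.0927). Of 7 measured epithelial markers 1 was called higher in WT cells under OGD, the keratin Krt19 (3.07 ± 0.71, adjusted p = 0.0147), and the median of the 7 was 0.13. Of the 8 endothelial markers 0 was called there, and the part of other cells in the Thbd change was not tested.

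Among genes called lower under OGD in WT cells (2.37% of all) were 0 of the 10. Cldn1 had the lowest value, with 579 and 1782 under OGD against 1487 and 6146 in untreated WT cells. The OGD and untreated arrays overlapped, but Cldn1 was lower within each replicate number, by -1.36 and -1.79 on the log2 scale. Its change of -1.57 ± 0.69 did not pass without pairing (adjusted p = 0.195) or with the replicate number as a block over all arrays (adjusted p = 0.0648). It passed with the replicate number as a block within chip pair (-1.57 ± 0.37, adjusted p = 0.00808). Sema7a and Foxs1 had the widest disagreement between OGD duplicates. Sema7a read 6625 and 1168 under OGD against 3813 and 7043 in untreated WT cells, and Foxs1 10171 and 1940 under OGD against 6949 and 3092 in untreated WT cells. Gpr149 read 13230 and 6686 under OGD against 13688 and 25299 in untreated WT cells, a change of -0.98 ± 0.41 (adjusted p = 0.175). Gap43 was higher on both OGD arrays, 8438 and 5825, than on both untreated WT arrays, 5041 and 3783, a change of 0.68 ± 0.35 (adjusted p = 0.287).

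Under TG 4 of the 10 fell in WT cells, where 1.73% of all genes were called lower. The untreated WT arrays, the baseline under both drugs, also helped to choose the 10 genes, which can favour falls from it. The water channel Aqp1 had the largest change of the 10. It read 2969 and 2843 under TG against 17649 and 36749 in untreated WT cells, a log2 change of -3.13 ± 0.49 (adjusted p = 0.0011), or 8.77-fold lower. The oxysterol hydroxylase Cyp7b1 read 400 and 353 under TG against 1702 and 4223 in untreated WT cells, a change of -2.84 ± 0.53 (adjusted p = 0.00394). The receptor Gpr149 read 3395 and 4218 under TG against 13688 and 25299 in untreated WT cells, a change of -2.30 ± 0.41 (adjusted p = 0.00322). Sema7a read 1304 and 1203 under TG against 3813 and 7043 in untreated WT cells, a change of -2.05 ± 0.53 (adjusted p = 0.0305). In all 4 the TG arrays lay below both untreated arrays, and the fall was seen in each replicate number. Cyp7b1 came down close to the background level of 233, whereas Aqp1, Gpr149 and Sema7a stayed well above it. Without untreated WT replicate 2, the brighter array for these genes, the change was -2.60 for Aqp1, still called, and the calls of Gpr149 (-1.85, adjusted p = 0.0586), Cyp7b1 (-2.18, adjusted p = 0.0728) and Sema7a (-1.61, adjusted p = 0.247) were lost. Sema7a also lost its call without either WT TG array (adjusted p = 0.155 and 0.176) and as the mean of its probes (-1.12, adjusted p = 0.0582).

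TM gave the same order of genes. Aqp1 read 3495 and 3535 under TM against 17649 and 36749 in untreated WT cells, a log2 change of -2.86 ± 0.49 (adjusted p = 0.00322). Cyp7b1 read 478 and 470 under TM, a change of -2.50 ± 0.53 (adjusted p = 0.0134), and Gpr149 read 3128 and 4160 under TM, a change of -2.37 ± 0.41 (adjusted p = 0.00389), both against the untreated values above. These 3 were called among 1.01% of all genes. Sema7a was lower on both TM arrays, 2218 and 2076, than on both untreated arrays, but its change of -1.27 ± 0.53 did not pass (adjusted p = 0.279). The drugs were not told apart in any of the 10 genes, with TM minus TG values in WT cells from -0.50 to 0.78 and 0 called by limma, or 0 at an unadjusted p of at most 0.05. For Sema7a the 95% interval of that difference was -0.35 to 1.90. Without untreated WT replicate 2 the calls of Aqp1 (-2.33, adjusted p = 0.0623), Gpr149 (-1.92, adjusted p = 0.0724) and Cyp7b1 (-1.84, adjusted p = 0.186) were lost. Gpr149 was lost also without WT TM replicate 1 (-2.16, adjusted p = 0.0677) and in a fit of the 2 groups alone (adjusted p = 0.0535), and Cyp7b1 without WT TM replicate 1 (-2.51, adjusted p = 0.113), without WT TM replicate 2 (-2.49, adjusted p = 0.0965) and in the fit of 2 groups (adjusted p = 0.0797).

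The other 6 genes were not called under either drug in WT cells. The tyrosine enzyme Fah read 4151 and 4100 under TG and 5030 and 4216 under TM, against 3355 and 4217 in untreated WT cells, and Slc35g2 read 2454 and 2609 under TG and 2464 and 2703 under TM, against 2337 and 2349 in untreated WT cells. Their intervals under TG were narrow, -0.40 to 0.67 for Fah and -0.35 to 0.58 for Slc35g2. These were among the tightest estimates of the 10. The forkhead gene Foxs1 was lower on all 4 drug arrays, 1877 and 1863 under TG and 2525 and 2584 under TM, than on the untreated arrays, 6949 and 3092, with changes of -1.31 ± 0.54 (adjusted p = 0.21) and -0.86 ± 0.54 (adjusted p = 0.578). The TG change of Foxs1 was called once replicates were blocked within chip pair (adjusted p = 0.0315), but not with the block over all arrays (adjusted p = 0.0791). Cldn1 read 1673 and 1774 under TG and 1762 and 1487 under TM, all close to the lower of the untreated WT values, 1487 and 6146. Gap43 was slightly above both untreated arrays, at 5505 and 6434 under TG and 5526 and 5305 under TM. Thbd read 3374 and 3678 under TG and 2397 and 2588 under TM, inside the untreated span of 1235 to 4313. Over the 10 genes the median WT change was -1.06 under TG and -0.88 under TM, where the median of all genes was 0. These medians are no test, since the genes were chosen for WT signal on arrays that include the untreated baseline. Of 15 measured fibroblast markers 1 was called lower in WT cells under each drug (medians -0.05 and -0.09), against 1.73% and 1.01% of all genes. It was the proteoglycan Dcn, under TG (-2.11 ± 0.30, adjusted p = 0.000503) and TM (-2.07 ± 0.30, adjusted p = 0.000751). Dcn was called higher in KO cells under TG (1.03 ± 0.30, adjusted p = 0.0397) and TM (1.30 ± 0.30, adjusted p = 0.0182). The fibroblast marker Fn1 was called higher in WT cells under TM (1.03 ± 0.27, adjusted p = 0.0463). Of 6 neural and glial markers 1 was called lower in WT cells under each drug, the neuronal Stmn2, under TG (-4.10 ± 0.67, adjusted p = 0.0017) and TM (-4.40 ± 0.67, adjusted p = 0.00133).

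**Figure D3:**
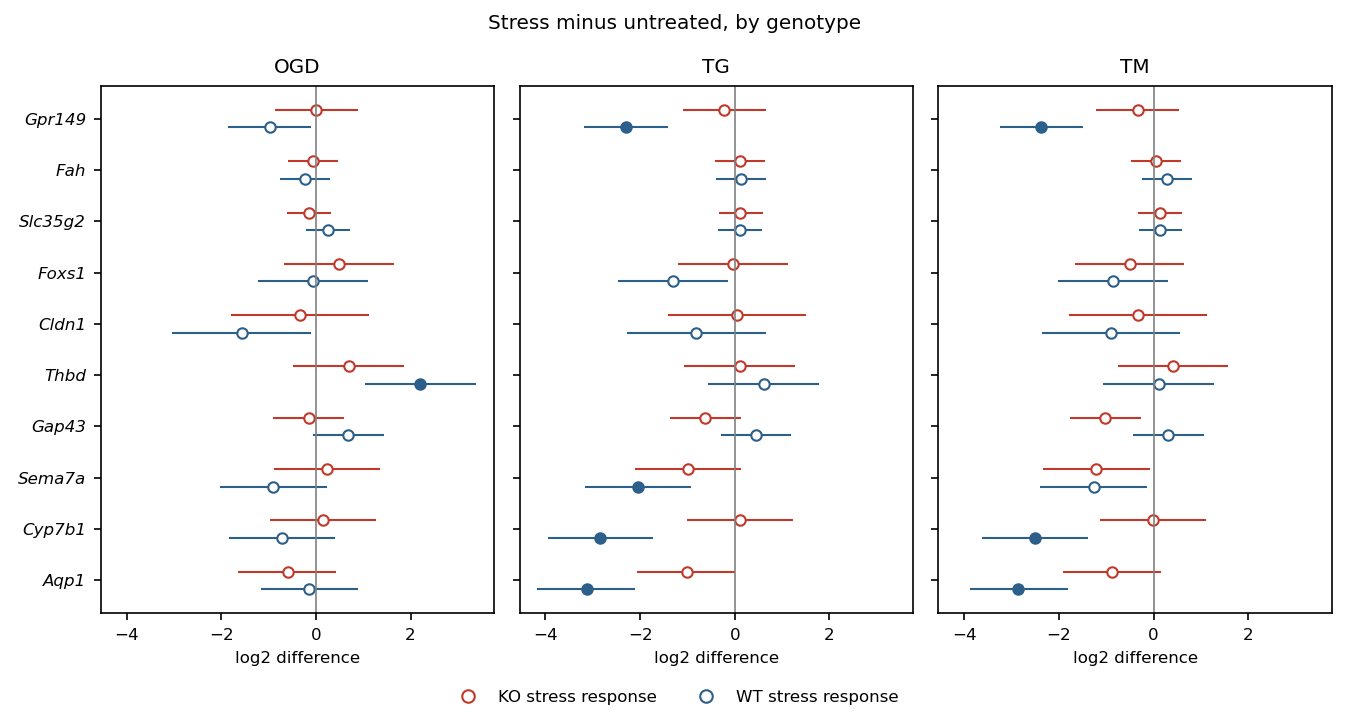
Log2 difference of stress minus untreated (x axis) for each gene, with the KO response in red above the WT response in blue, for OGD, TG and TM. Bars are 95% intervals of the limma fit and filled circles are called. Filled circles occur in WT cells only, for Thbd under OGD, for 4 genes under TG and for 3 under TM.

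KO cells showed 0 of the 10 called under OD (0.293% of all genes in either direction), GD (0.00752%), OGD (1.3%), TG (5.37%) and TM (3.19%). At an unadjusted p of at most 0.05 with the same fold the count was 2, both lower under TM, Gap43 and Sema7a. Aqp1 shared its direction with WT cells. It read 876 and 670 under TG and 805 and 892 under TM, all below the untreated KO arrays at 1652 and 1468, with changes of -1.02 ± 0.49 (adjusted p = 0.244) and -0.88 ± 0.49 (adjusted p = 0.402). Sema7a read 243 and 213 under TG and 191 and 199 under TM, against 522 and 389 in untreated KO cells, with changes of -0.99 ± 0.53 (adjusted p = 0.319) and -1.21 ± 0.53 (adjusted p = 0.249). Under TM it had reached background. Gap43 read 549 and 437 under TG and 375 and 367 under TM, against 616 and 918 in untreated KO cells, with changes of -0.62 ± 0.35 (adjusted p = 0.354) and -1.02 ± 0.35 (adjusted p = 0.123). That is the opposite sign to the WT values of this gene. Thbd under OGD had the sign seen in WT cells, with 313 and 473 under OGD against 223 and 257 in untreated KO cells, a change of 0.69 ± 0.55 (adjusted p = 0.708). Aqp1 under TG (adjusted p = 0.0236) and Sema7a under TM (adjusted p = 0.0232) were called when only the 2 groups were fitted, and Aqp1 under TG also with the block within chip pair (adjusted p = 0.0299). For Slc35g2 and Cyp7b1 a KO response cannot be read, since 0 and 1 of their 12 KO arrays rose above background. Gpr149 read 210 to 355 on KO arrays, close to the background level of 233, so a large fall could not show there. The same holds for Cldn1 (167 to 271), Fah (236 to 343) and Thbd (207 to 473).

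Whether stress narrowed the gap was asked of the KO response minus the WT response, in which a positive value is a smaller gap. The untreated arrays helped to choose the genes and enter each of these differences. Responses that cannot be told apart from the chip enter them too, among them those of WT cells under TG and TM and of KO cells under OD and OGD. Those of KO cells under TG and TM may be such responses as well. The part of the chip in gap changes was not tested. Under OD and GD 0 of 10 was called (0% of all genes in both), with values of -0.21 to 0.40 and -0.47 to 0.65. Under OGD (0.0225%), TG (0.481%) and TM (0.631%) the count was 0 as well in the fit without pairing. At an unadjusted p of at most 0.05 with the same fold, the gap was narrower for Gpr149, Cyp7b1 and Aqp1 under both TG and TM, and wider for Gap43 under both.

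For Cyp7b1 the change rests on the WT fall, because KO Cyp7b1 was at background on all TG, TM and untreated arrays and its gaps are bounds. Its measured gap was -0.91 under TG and -1.37 under TM against -3.87 untreated, and the change was 2.96 ± 0.74 under TG (adjusted p = 0.13) and 2.49 ± 0.74 under TM (adjusted p = 0.254). KO cells were at least 1.61-fold lower than WT cells under TG, at least 2.03-fold under TM and at least 11.5-fold untreated. Gpr149 had a gap of -3.95 under TG and -4.00 under TM against -6.03 untreated, with changes of 2.08 ± 0.58 (adjusted p = 0.211) and 2.03 ± 0.58 (adjusted p = 0.231). It remained 15.4-fold lower in KO cells under TG. Aqp1 had a gap of -1.92 under TG and -2.05 under TM against -4.03 untreated, with changes of 2.11 ± 0.69 (adjusted p = 0.368) and 1.98 ± 0.69 (adjusted p = 0.409). In folds Aqp1 was 3.79-fold lower in KO cells under TG and 16.3-fold lower untreated. The WT response was the larger in size for Aqp1, with a KO response of -1.02 and a WT response of -3.13 under TG. For Gpr149 under TG these values were -0.22 and -2.30. KO Gpr149 read 235 and 255 under TG, 210 and 243 under TM and 261 and 313 untreated, close to the background level of 233. A KO fall as large as that of WT cells could not have shown, so the Gpr149 change also rests on the WT fall.

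Since same-numbered arrays deviated together over all kept probes, the fit was repeated with the replicate number as a block. The block assumes 1 shift shared by both genotypes. In untreated cells the order of replicates was the same in both genotypes for Gpr149, Slc35g2, Foxs1 and Cldn1. It was opposite for Fah, Thbd, Gap43, Sema7a, Cyp7b1 and Aqp1 (1652 and 1468 in KO cells, 17649 and 36749 in WT cells). WT TG and WT TM duplicates hardly differed (median 1.07-fold). Pairing then called the gap narrower in 3 cases, Gpr149 under TG (2.08, adjusted p = 0.0411) and TM (2.03, adjusted p = 0.0458) and Cyp7b1 under TG (2.96, adjusted p = 0.0402). KO signal was near background for Gpr149 and at background for Cyp7b1. A positive change was called for 0.699% of all genes under TG and 0.759% under TM. With the block, Cyp7b1 was not called under TM (adjusted p = 0.0908), nor Aqp1 under TG (adjusted p = 0.156) or TM (adjusted p = 0.176). With the block set within each chip pair, Gpr149, Cyp7b1 and Aqp1 were called under both drugs, 6 cases in all.

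Some gaps were wider under stress in their values, though none was called wider in this fit or in that with the replicate block. For Gap43 the gap was -3.37 under OGD, -3.60 under TG and -3.87 under TM against -2.54 untreated, and the change under TM was -1.33 ± 0.50, with an interval of -2.39 to -0.27 (adjusted p = 0.487). The gap of Thbd was -4.80 under OGD against -3.27 untreated, a change of -1.53 ± 0.78 (adjusted p = 0.975), from a WT response of 2.21, which passed the test, and a KO response of 0.69, which did not. The Thbd gap was -2.97 under TM. Under OGD the change was -0.47 for Aqp1. Under TG the change was -0.03 for Fah, with an interval of -0.78 to 0.73. For Slc35g2 only bounds can be given, since its KO signal was at background on every array, and KO cells were at least 10.8-fold lower under TG and at least 10-fold lower untreated. Sema7a fell in WT cells under TG but had low KO values there too, and its gap was -2.46 under TG and -3.46 under TM against -3.52 untreated, a change of 1.06 ± 0.75 under TG (adjusted p = 0.981). KO Sema7a read 243 and 213 under TG and 191 and 199 under TM. Its gap under TM is thus a bound, and that under TG may be. Foxs1 had a change of 1.28 ± 0.77 under TG (adjusted p = 0.937), and Cldn1 one of 1.24 ± 0.97 under OGD (adjusted p = 1). KO Cldn1 read 178 and 209 under OGD, at background, so its OGD gap is a bound.

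**Figure D4:**
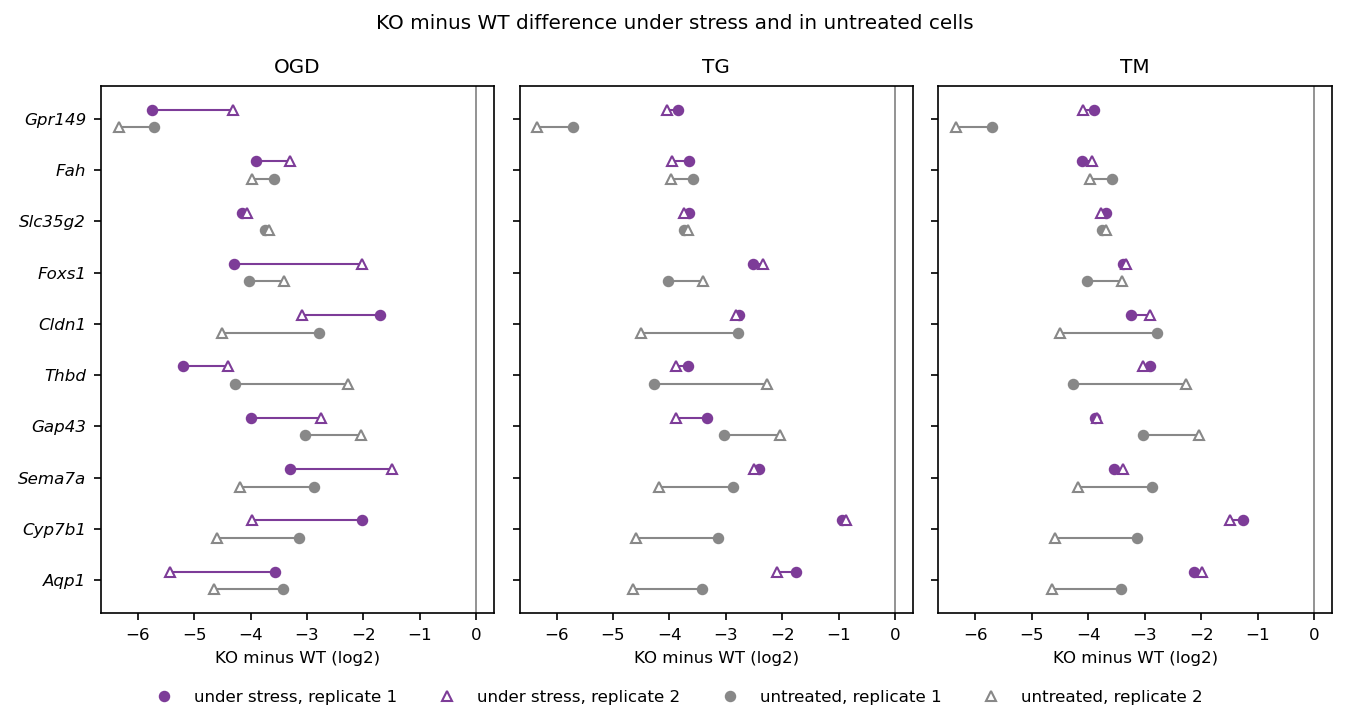
KO minus WT difference (log2) within each replicate number, for OGD, TG and TM, with the stress in purple above untreated cells in grey. Circles are replicate 1 and triangles replicate 2. Values rest on background for KO Slc35g2, Cyp7b1, most of Cldn1 and Sema7a under TM, and lie near it for KO Gpr149 and for KO Sema7a under TG. Under TG and TM the points of Cyp7b1, Aqp1 and Gpr149 lie nearer to 0 than the untreated ones, and those of Gap43 lie farther away.

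Several genes had more than 1 probe. The 3 Aqp1 probes gave like values, with WT TG changes of -3.13, -3.55 and -3.41. The second Gpr149 probe was dimmer, at 209 to 313 on KO arrays and 240 to 610 on WT arrays, and its gap was -1.07 untreated, -0.22 under TG and -0.14 under TM. The second Sema7a probe had a WT TG change of -1.28 ± 0.47 (adjusted p = 0.146), while the third, at 143 to 177 on KO arrays and 156 to 244 on WT arrays, hardly left background. The values above are those of the brightest probe of each gene.

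Genes related to members of the group were counted in the same comparisons. Among semaphorins and their receptors, 26 of 32 listed genes were measured besides Sema7a. Sema4f, a transmembrane semaphorin, was the one called lower in untreated KO cells, where 1.47% of all genes were (-2.04 ± 0.40, adjusted p = 0.00513), and it also fell in WT cells under TG (-1.72 ± 0.40, adjusted p = 0.0155) and TM (-1.69 ± 0.40, adjusted p = 0.0261), the direction that Sema7a took under TG. Of 13 measured genes of growth cone and axon, 2 were called lower in untreated KO cells (1.47% of all genes), the tubulin-binding Stmn2 (-4.27 ± 0.67, adjusted p = 0.000927) and Crmp1 (-2.41 ± 0.65, adjusted p = 0.0449). In WT cells 2 of them fell under both drugs (1.73% of all genes under TG and 1.01% under TM), Stmn2, as given above, and Marcksl1 (-1.59 under TG, -1.16 under TM), where Gap43 was at 0.45 and 0.31 and was not called. The medians of the semaphorin list were 0.03 for untreated KO minus WT, -0.14 for WT TG and -0.10 for WT TM, and those of the axon list -0.23, -0.17 and -0.24, beside 0 for all genes in each comparison.

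Of all genes 3.78% were called in either direction in untreated KO minus WT. In WT cells 4.55% were called under OGD, 3.85% under TG and 2.57% under TM. With lists this short, the counts below are a description only. Of 11 measured genes of oxysterol and bile acid synthesis, 0 was called in untreated KO cells (0 unadjusted). The one called in WT cells was Ch25h, the cholesterol 25-hydroxylase, which rose under TG (1.99 ± 0.25, adjusted p = 0.000199) where Cyp7b1 fell. Of 7 measured aquaporins besides Aqp1, 0 was called by limma in untreated KO cells or in WT cells under OGD, TG or TM, and 0 again without the adjustment. Aqp5 was lower in KO cells under TG (-1.51 ± 0.34, adjusted p = 0.0117), where 1.83% of all genes were called lower. Among 13 measured tight-junction genes, Cgnl1 was higher in untreated KO cells (2.67 ± 0.42, adjusted p = 0.000934, against 2.31% of all genes called higher). Marveld1 was lower in WT cells under OGD (-2.08 ± 0.38, adjusted p = 0.00372, against 2.37% of all genes called lower). Of 12 measured genes of the anticoagulant and fibrinolytic surface, the plasminogen activator Plat rose in WT cells under TG (1.49 ± 0.29, adjusted p = 0.0056, where 2.12% of all genes were called higher) and TM (2.17 ± 0.29, adjusted p = 0.00047, where 1.56% were). Protein S (Pros1) fell under TG (-1.32 ± 0.26, adjusted p = 0.0056, where 1.73% of all genes were called lower). Under OGD, where Thbd rose, 0 of them was called (0 unadjusted). The 21 forkhead genes gave Foxj3 higher under OGD in WT cells (1.00 ± 0.22, adjusted p = 0.0125, where 2.18% of all genes were called higher). The 22 SLC35 genes gave Slc35b1 higher under TG in WT cells (1.50 ± 0.38, adjusted p = 0.0276, where 2.12% of all genes were). They also gave Slc35a4 lower under OGD (-1.04 ± 0.17, adjusted p = 0.00208, where 2.37% of all genes were called lower). Of 4 measured genes of tyrosine breakdown besides Fah, 0 was called in untreated KO cells or in WT cells under OGD, TG or TM (0 unadjusted). Qdpr, which regenerates the cofactor of tyrosine synthesis, was lower in KO cells under OD (-1.03 ± 0.17, adjusted p = 0.00139), OGD (-1.18 ± 0.17, adjusted p = 0.000387) and TG (-1.05 ± 0.17, adjusted p = 0.000955). Of all genes 1.68% were called lower in KO cells under OD, 1.99% under OGD and 1.83% under TG.

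Across the 24 arrays, the gene outside the group whose profile was most like each member was found by Pearson's r on log2 values. Both genotypes enter each coefficient, and the members were chosen for a split between them. The part of that split in the size of r was not tested, and the coefficients carry no p. Siah1a itself was the nearest to Slc35g2 (r = 0.983) and to Gap43 (r = 0.968). Fah was nearest to Gpx7, an ER-resident glutathione peroxidase (r = 0.983), with Siah1a next (r = 0.981). Foxs1 was nearest to Xist (r = 0.961), Gpr149 to 1700013G24Rik (r = 0.977), Cldn1 to Heph, a copper ferroxidase (r = 0.976), and Thbd to Alcam, a cell adhesion molecule (r = 0.941). Sema7a was nearest to Schip1 (r = 0.954). Cyp7b1 was nearest to the splicing factor Rbfox1 (r = 0.983) and Aqp1 to the X-linked homeobox gene Rhox5 (r = 0.975).

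The 10 genes lie on chromosomes 2, 3, 6, 7, 9 and 16. Gpr149 and Cyp7b1 share chromosome 3 with Siah2, with 53 and 502 annotated genes between each of them and Siah2, while 0 of the 10 lies on chromosome 8 with Siah1a. Of the 25 annotated genes on each side of Siah2, 11 were measured and 0 was called lower in untreated KO cells (0 unadjusted), where 1.47% of all genes were. Under stress 1 of them, Serp1, was called lower in KO cells in at least 1 condition (1.51% to 2.07% of all genes in each). These shares are for single conditions, and the share called in any of them was not computed. Around Siah1a 8 were measured and 1, Gpt2, was called lower in untreated KO cells, where 1.47% of all genes were.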

How the data were processed

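The 24 Illumina Mouse-6 arrays were read from the normalized table the authors deposited, whose values are linear intensities with no background subtracted, made with GenomeStudio (its version and settings are not given in the sources used here). Sorted values differed between arrays by a median of 0.0816% (at most 4.477%), so the arrays share 1 distribution. A second table, of non-normalized values, has 48 columns (24 of signal and 24 of detection p-values) whose names match no label, and it was not used here. The deposited intensities were put on the log2 scale for the tests, so all log2 values were computed here from them. Array number limits the precision, with 2 arrays a group.

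The background distribution had its mode at 182 and its upper limit, the background level, at 233. A probe was kept if above that level on at least 1 array (26426 of 45281 probes, 58.4%). Of all probes, 34885 have 1 gene symbol, 18 several and 10378 none, and 34807 matched the reference by gene ID, which changed 0 symbols. The brightest kept probe stood for each of 13305 genes. Group means were fitted with limma (version 3.58.1 in R 4.3.3, residual df 12, prior df 3.44), with Benjamini-Hochberg adjustment over kept probes, and the code was tested on simulated data. Tables and figures used Python 3.11.15, numpy 2.4.6, pandas 2.3.3 and matplotlib 3.10.9.

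The 10 genes and the lists were chosen with earlier results of these data known. Named besides the 10 genes were Siah1a and Siah2, the gene with the highest Pearson r to each member, and up to 3 called genes per list and comparison, the largest fold first. The sex-linked genes, the single marker genes, the second-nearest look-alike of Fah, Gpt2 and Serp1 were named after their values were seen. Over all kept probes, same-numbered arrays deviated together in all 66 pairs of groups (r of 0.136 to 0.765, median 0.377), so the replicate number was taken to pair arrays. Fits with it as a block, over all arrays or within chip pair, are given where they change a call. Chip pairs were read from array names printed in the study's heat map. Alternatives were the filter, the background level, a fit of the compared groups alone, 2 blocks, normexp correction (offset 50), 2 other call rules, a variance trend, array weights, the mean of probes and each of the 24 arrays left out. A block within genotype and chip pair was chosen after seeing the data.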

Additional observations from a re-analysis of the deposited data

Results flagged for a closer look

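For 3 results the response to a drug differed between genotypes by a test of the difference itself, with the replicate number as a block. The TG response of Gpr149 in KO minus that in WT cells was 2.08 ± 0.46 (SE, limma adjusted p = 0.0411), and its TM response differed by 2.03 ± 0.46 (adjusted p = 0.0458). KO Gpr149 read 235 and 255 under TG, 210 and 243 under TM and 261 and 313 untreated, close to the background level of 233. A KO fall of WT size could not have shown, so both values rest on the WT falls. The TG response of Cyp7b1 differed by 2.96 ± 0.66 (adjusted p = 0.0402), but KO Cyp7b1 was at background under TG and untreated, so this value rests on the WT fall and says nothing of a KO response. Without the block the adjusted p-values were 0.211, 0.231 and 0.13 in that order, and none passed.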

How the results depend on the processing

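In WT cells 1 rise and 7 falls of the 10 genes were called over the 5 stresses, in KO cells 0 rises and 0 falls, and the gap was called narrower in 0 and wider in 0 cases. No call reversed its direction in the 36 alternatives, and Aqp1 under TG kept its call in all 36. A fit of the compared groups alone gave 0 rises in WT and 2 falls in KO cells. Array weights gave 0 rises in WT cells, 2 falls in KO cells and 2 narrower gaps. An unadjusted p gave 2 falls in KO cells, 6 narrower gaps and 2 wider gaps. Under pairing, the replicate block gave 3 narrower gaps and changed no call in WT or KO cells. The replicate block within chip pair gave 1 fall in KO cells and 6 narrower gaps, and added falls of Cldn1 under OGD and Foxs1 under TG in WT cells. The replicate block within genotype and chip pair, chosen after seeing the data, gave 2 falls in KO cells, 7 narrower gaps and 1 wider gap. With 1 array left out, rises in WT cells ran from 0 to 1, falls in WT cells from 1 to 10, rises in KO cells from 0 to 0, falls in KO cells from 0 to 1, narrower gaps from 0 to 1 and wider gaps from 0 to 0. The lowest count of falls, 1, came without untreated WT replicate 2. The causes of these shifts were not tested. With 2 arrays a group, the 95% intervals of gap changes were wide, and KO signals at background give only a bound.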
